A study of Drosophila melanogaster with 16 samples.

Results

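CG8353, CG4269 and CG15210 are 3 of the 16637 Drosophila melanogaster transcripts on the arrays (FBtr0079593, FBtr0071854 and FBtr0073377), and each was measured with 8 probes, 24 in all. They were selected because their signal was much higher in old than in young hearts, so the ratios between ages given here describe that choice and carry no test. Gene expression was compared between hearts (in the fly a muscular tube along the back) dissected from adult males of a w1118, Canton S isogenic line at 40 days and at 10 days of age. Both groups were untreated and of the same line, each sample pooled 10 cardiac tubes, and each age had 4 biological replicates, A to D. RNA of each sample was amplified from the poly(A) end, labelled once with Cy5 and once with Cy3, and hybridized to 8 arrays of 1 slide, with a 40-day and a 10-day sample on each array.

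CG8353 belongs to the cytidine deaminase family. Cytidine deaminases turn cytidine into uridine and deoxycytidine into deoxyuridine, a step of pyrimidine salvage, in which cells reuse nucleosides released from broken-down nucleic acids. From there uridine may be phosphorylated by kinases or split to uracil by uridine phosphorylases. No function is stated here for CG4269 and CG15210. In the RefSeq annotation CG8353 lies on chromosome arm 2L between CG8360, with which it overlaps, and CG8349, which belong to the same family. CG4269 lies on 2R, where it overlaps CG4294, and CG15210 lies on X within the span of sbr, which encodes an mRNA export factor.

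All 24 probes were brighter at 40 days on 8 of 8 arrays. The log2 ratio of 40 to 10 days was 3.37 ± 0.40 for CG8353, 3.37 ± 0.32 for CG4269 and 3.12 ± 0.40 for CG15210 (SD, n = 4 ratios), or 10.4-fold, 10.3-fold and 8.71-fold. The ratio of CG4269 depends on background, since 6 of its 8 probes exceeded it (the 95th percentile of random control probes in the channel) in at most 1 of 8 channels of 10 days. With each 10-day reading set to no less than the background of its array, the mean ratios were 9.89-fold (CG8353), 7.37-fold (CG4269) and 7.96-fold (CG15210). These values bound the effect of background only, not the spread among arrays. By the measured ratios the 3 genes held ranks 8, 9 and 10 of all transcripts by rise, just after one at 3.42 and before one at 3.06. Of the 16637 transcripts, 24 (0.144%) passed as higher at 40 days and 7 (0.0421%) as lower at an adjusted p under 0.01 (limma, Benjamini-Hochberg), and the 3 genes were among the 24 because they were picked from this contrast. In RNA of whole tubes, more cells of a type and more RNA per cell cannot be told apart.

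The array design carries FlyBase transcript numbers only, and a name could be given here to 701 transcripts, through the study's list of changed probes, which was held only in part and whose rows used here are all of induced probes. Among 41 marker genes of heart muscle, nephrocytes, fat body, haemocytes, oenocytes, testis, accessory gland and neurons, 2 could be named, none of them from heart muscle, so the labelled tissue could not be checked against its markers. Rfabg, the fat body apolipophorin precursor, had a log2 ratio of 1.22 (limma, adjusted p = 0.21). For crq, a haemocyte scavenger receptor, it was 0.63 (limma, adjusted p = 0.041). With 4 samples against 4 in the authors' normalized values, the adjusted p was 0.24 for Rfabg and 0.29 for crq (limma). Their part in the values of the 3 genes was not tested. The arrays hold 4100 random control probes, and 22.1% to 29.7% of gene probes, depending on the channel, exceeded the background set from them.

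The arrays can be assigned to samples in 2 ways, which differ in the arrays of the 40-day samples and exchange 10-day samples B and C. By the labels, the arrays of a replicate letter hold the 40-day and the 10-day sample of that letter, whereas the columns of the normalized value table follow the scanner channels of a closed loop, in which each 40-day sample was set against 2 different 10-day samples. Both ways put the same age in each channel, so every direction stands. For the 3 genes the dyes of a 40-day sample differed on average by 0.29 (CG8353), 0.25 (CG4269) and 0.06 (CG15210) on the log2 scale under the pairing of the value table, and by 0.76, 1.08 and 0.48 under that of the labels. Values per sample are therefore given from the value table, as the geometric mean of the 8 probes over both dyes. The 4 ratios above follow the letters of the labels and may share 40-day samples, so their SDs may understate the spread among samples.

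CG8353 had normalized intensities of 5021, 6485, 3698 and 2512 in 40-day samples A to D, against 472, 402, 348 and 333 in 10-day samples A to D. The ages did not overlap, and the lowest 40-day sample, D, stood 2.41 above the highest 10-day sample, A, on the log2 scale. On that scale its level was 12.03 ± 0.59 at 40 days and 8.59 ± 0.23 at 10 days (SD, n = 4 each).

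CG4269 had normalized intensities of 1702, 963, 2106 and 749.6 in 40-day samples A to D, against 108, 105, 91.5 and 132 in 10-day samples A to D. Replicates C and A were high and B and D low at 40 days, whereas the 10-day samples lay close together and all below them. Only 13 of its 64 readings of 10 days exceeded the background, so this closeness does not measure how even the level was in young hearts. Its log2 level was 10.31 ± 0.69 at 40 days and 6.76 ± 0.22 at 10 days (SD, n = 4 each).

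CG15210 had normalized intensities of 1878, 2168, 1261 and 1326 in 40-day samples A to D, against 133, 149, 176 and 245 in 10-day samples A to D. Here the ages were also apart, and 10-day sample D was the highest of its age. It was so for CG4269 too, where most 10-day readings were at background and D contains a single bright reading described further on. The log2 level of CG15210 was 10.66 ± 0.38 at 40 days and 7.42 ± 0.38 at 10 days (SD, n = 4 each). In the scanner channels under the same assignment the SD was 0.51 at 40 days and 0.31 at 10 days. Whether its spread was alike at both ages thus depends on the values used, and its 10-day readings seldom exceeded background by much.

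**Figure D1:**
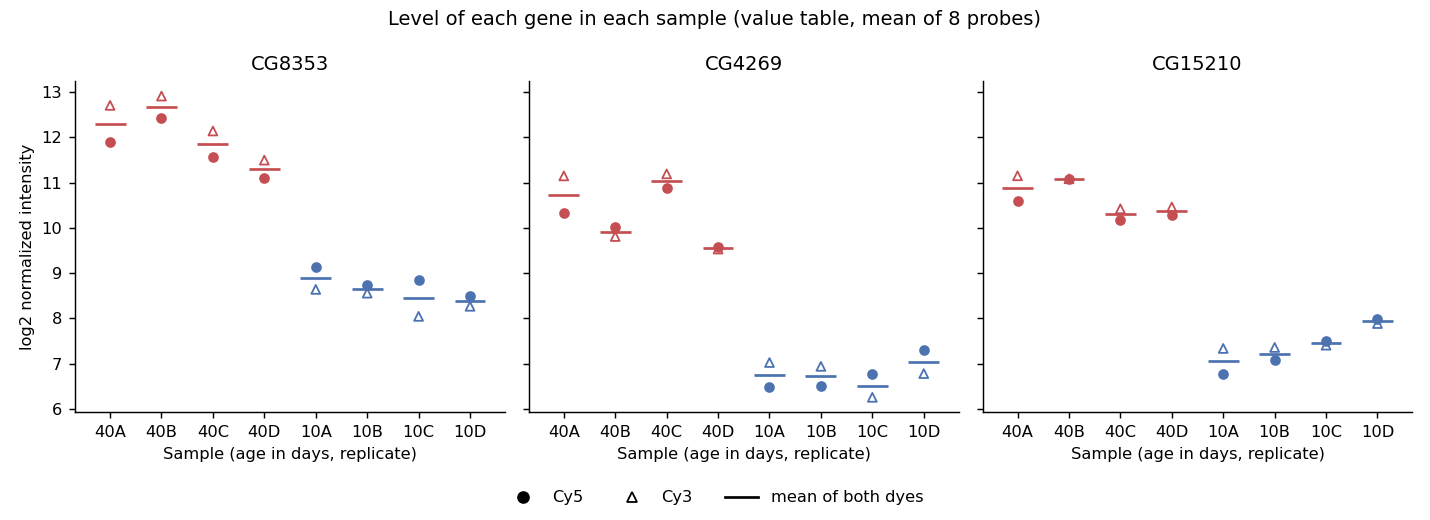
Log2 normalized intensity of each gene (y axis, mean of 8 probes from the value table) in the 4 samples of 40 days and the 4 of 10 days (x axis), with filled circles for Cy5, open triangles for Cy3 and a bar for their mean. Every 40-day sample lies above every 10-day sample, and the 40-day samples of CG4269 fall into a higher pair, A and C, and a lower pair, B and D.

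Within the 40-day samples the highest exceeded the lowest by 2.58-fold for CG8353, by 2.81-fold for CG4269 and by 1.72-fold for CG15210. An SD among 40-day samples at least as large as theirs was found in 6.05% of all transcripts for CG8353, in 4.14% for CG4269 and in 14.6% for CG15210, where the median transcript had 0.17. Among 10-day samples the shares were 36.1%, 39.1% and 17.2%, with a median SD of 0.18, where that of CG4269 rests on readings mostly at background. Of all gene probes 52.7% exceeded the background in no channel of 10 days. No comparison was made with transcripts of like brightness. When the scanner channels were assigned by the labels, the SD of CG4269 among 40-day samples was 0.20 in place of 0.69, and that of CG8353 0.45 in place of 0.59, so the spread of CG4269 at 40 days rests on the assignment of the value table.

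The ratios on single arrays, each the mean of a gene's 8 probes, are grouped here by 40-day sample as the value table assigns them. CG8353 had log2 ratios of 3.72 and 4.29 on the arrays with 40-day sample B and of 3.21 and 4.08 on those with A, against 3.25 and 2.96 with C and 2.68 and 2.79 with D. For CG4269 the ratios were highest with 40-day sample C, at 4.15 and 3.80, and lowest with D, at 2.81 and 2.69. CG15210 had its highest ratios, 4.11 and 3.55, with 40-day sample B, and its lowest, 2.34, with D against 10-day sample D, the brightest of its age. Averaged over the 4 arrays of each dye, the ratio was 3.31 with the 40-day sample in Cy5 and 3.43 with it in Cy3 for CG8353, 3.31 and 3.43 for CG4269, and 2.95 and 3.29 for CG15210.

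**Figure D2:**
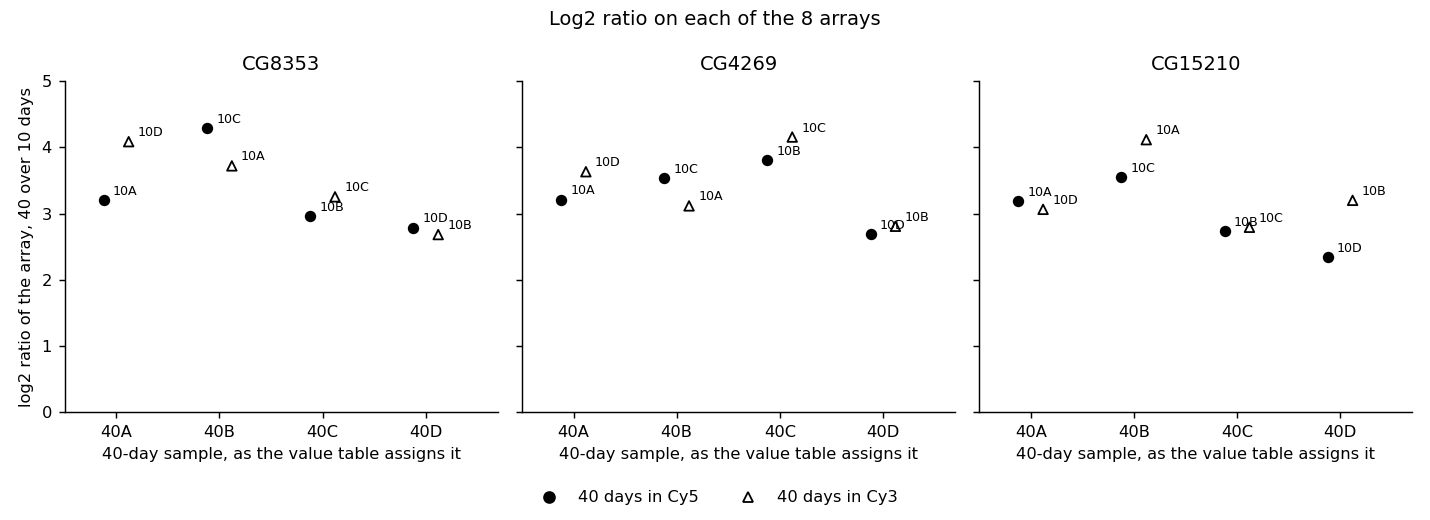
Log2 ratio of 40 to 10 days on each of the 8 arrays (y axis), grouped by the 40-day sample that the value table assigns to the array (x axis), with the 10-day sample written beside each point and the symbol giving the dye of the 40-day sample. All 24 ratios lie above 2, and the arrays of 40-day sample D include the lowest ratio of each gene.

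Whether the 3 genes moved together among samples of one age was asked of the 8 samples, each centred on the mean of its age. Pearson's r was 0.19 between CG8353 and CG4269 (Spearman's rho = 0), 0.36 between CG8353 and CG15210 (rho = 0.048) and 0.02 between CG4269 and CG15210 (rho = -0.071). With samples exchanged within an age, the exact permutation test (two-sided, 576 arrangements) gave p = 0.77, 0.45 and 0.96 for r, each 0.96 after adjustment over the 3 pairs, and p = 1, 0.93 and 0.84 for rho, each 1 after adjustment. Without the 2 samples farthest from the median of the gene named first, r was -0.15, -0.28 and 0.12. The samples left out were all of 40 days, B and D for the pairs of CG8353 and C and D for CG4269 and CG15210. The 10-day levels of CG4269 were mostly at background, and that of D contains the single bright reading of its probe at 21 described further on, so at 10 days its pairs compare little but background. No shared variation was detectable with 8 samples, which does not show that there is none. An r with CG8353 as high as that of CG15210 was found in 10.6% of all transcripts, and one as high as that of CG4269 in 18.8%.

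The order of the samples differed by age. By the value table, CG8353 and CG15210 were both highest in B and next in A at 40 days. CG4269 was highest in C, next in A and lower in B and D. With the scanner channels assigned by the labels, CG8353 and CG15210 were highest in A and next in B. CG4269 was then highest in B and lowest in C. In the 10-day samples of the value table the order from high to low was A, B, C, D for CG8353 and D, C, B, A for CG15210.

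**Figure D3:**
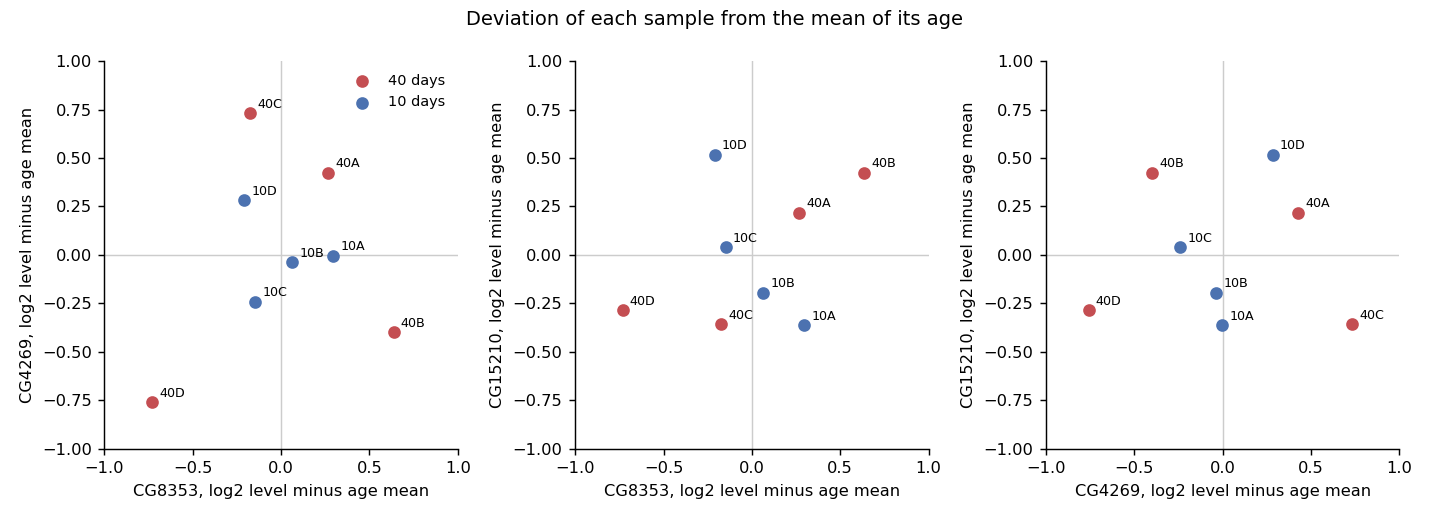
Log2 level of one gene against another in the 4 samples of 40 days and the 4 of 10 days, each minus the mean of its age (value table, both axes in log2 units). The points of each pair scatter around the origin on every side, with r between 0.02 and 0.36.

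At the level of single probes, the scanner intensities of 40-day channels exceeded the background percentile in 192 of 192 measurements (24 probes in 8 channels), against 105 of 192 in 10-day channels. Counted by probe, all 24 passed in 8 of 8 channels at 40 days. At 10 days 6 of the 24 passed in 8 of 8 channels and 2 in none. Over all 132999 gene probes, 15.2% passed in 8 of 8 channels at 40 days and 14.6% at 10 days, while 52.7% passed in none of the 10-day channels. At 10 days CG8353 was above the controls in 52 of 64 measurements, CG15210 in 40 of 64 and CG4269 in 13 of 64.

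CG8353 was thus measured above background at both ages over most of its probes, since the 5 that start at nucleotides 185 to 454 passed in all 8 channels of 10 days. The probe that starts at 439 read 24554, 27641, 21098 and 12769 in Cy5 and 18156, 14704, 13076 and 28192 in Cy3 at 40 days, in array order. At 10 days it read 3899, 1836, 1880 and 1379 in Cy5 and 537, 371, 483 and 723.6 in Cy3. Each 40-day reading was above each 10-day reading, and within the 10-day readings Cy5 was brighter than Cy3 throughout. Over the 8 probes the raw difference between ages was 2.97 in Cy5 and 3.97 in Cy3 on the log2 scale, before the loess step that removes dye bias.

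CG4269 was near background at 10 days. Its probe at 220 read 5289, 3121, 7421 and 2090 in Cy5 and 2236, 6216, 2213 and 6946 in Cy3 at 40 days, against 248, 293, 175 and 204 in Cy5 and 162, 100.3, 86.6 and 126 in Cy3 at 10 days. The probes that start at 1 and 11 were not above the controls in any 10-day channel, so only a bound on their mean ratio can be given. They were on average at least 2.49-fold and at least 2.87-fold higher at 40 days. For this the 10-day level was set per array to the control percentile or the reading of the probe, whichever was higher. One reading stood apart, that of the probe at 21 in the 10-day channel of array 8, which was 617 where the other 10-day channels read 56.2 to 83.7, and this probe had the widest SD of its ratio, 0.69. The overlapping probe at 24 read 73.6 in that channel.

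CG15210 passed the background in most 10-day readings but seldom by much, with a highest reading of 2.38 times the percentile of its channel. At the 99th percentile of the controls, 1 of its 64 readings of 10 days passed, as for CG4269, against 35 of 64 for CG8353. The probe at 33 read 2629, 3412, 2481 and 1868 in Cy5 and 1926, 2242, 1555 and 3385 in Cy3 at 40 days, against 169, 251, 149 and 390.3 in Cy5 and 109.6, 179, 95.1 and 275 in Cy3 at 10 days. For all 8 probes of this gene the lowest 40-day reading was above the highest 10-day reading, as it was for 7 of 8 probes of CG4269 and 6 of 8 of CG8353.

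**Figure D4:**
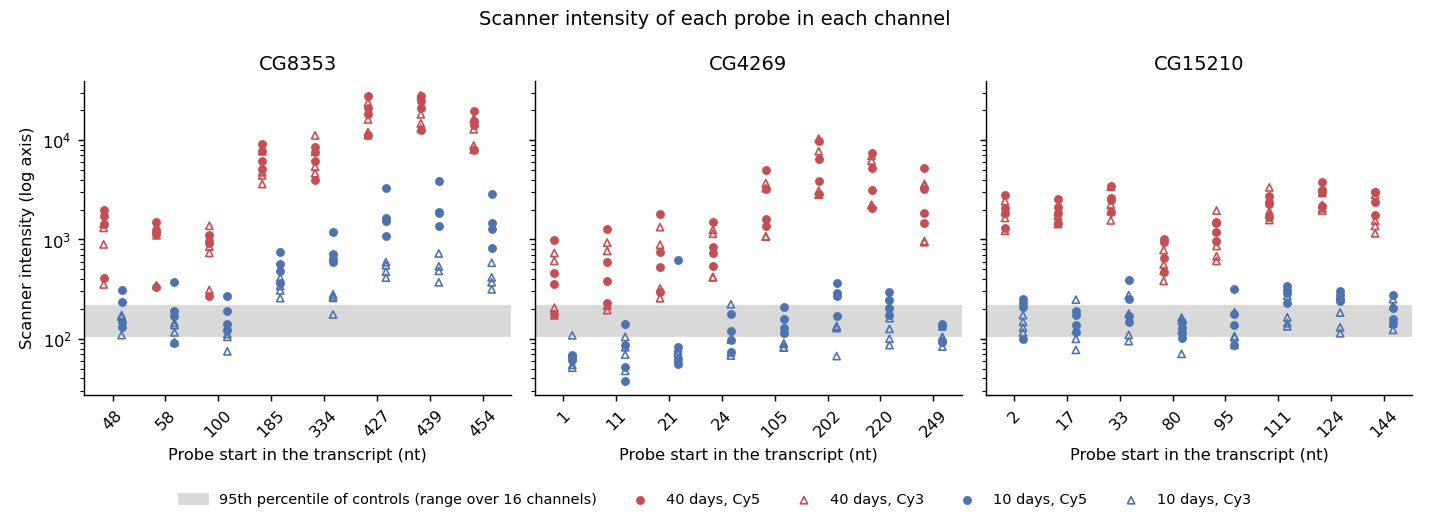
Scanner intensity (y axis, log scale) of each of the 24 probes in each channel, 8 at 40 days and 8 at 10 days, against the probe's start in the transcript in nucleotides (x axis, not to scale), with a grey band for the background percentile of the random probes over the 16 channels. All 40-day readings exceed the percentile of their own channel, whereas the 10-day readings of CG4269 lie mostly in or below the band.

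The ratio varied along CG8353 and CG4269. The probes are 60 nucleotides long and many overlap, so they do not measure independently: those of CG8353 cover 4 separate stretches, those of CG4269 3 and those of CG15210 1. In CG8353 the log2 ratio was 2.38 over nucleotides 48 to 159, then 3.68, 3.86 and 4.10 in the 3 stretches that follow, or 5.21-fold in the first and 17.1-fold in the last. In CG4269 it was 2.44 over nucleotides 1 to 83, 4.03 over 105 to 164 and 4.39 over 202 to 308, with 10-day readings that were mostly not above background. With these set to no less than background, the mean ratios of the 3 stretches were 3.24-fold, 13.0-fold and 18.2-fold. At 10 days the 3 probes of the first stretch of CG8353 passed the background in 3 to 5 of 8 channels, against 8 of 8 for the probes after it, while those of CG4269 passed in 0 or 1 of 8 in the first stretch and in 1 to 5 of 8 after it. Readings at background hold a ratio down, so how much the true ratio differs along these transcripts was not measured. The single probe with the highest ratio was that at 202 in CG4269, at 4.73 ± 0.42, or 26.5-fold.

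CG15210 showed no such course. Its 8 probes lie within nucleotides 2 to 203 as 1 overlapping chain, and their ratios were 3.31 to 3.49 over the probes at 2, 17 and 33, 2.16 at 80, 2.76 at 95, and 3.11 to 3.44 from 111 to 144. The probe at 80 had the lowest ratio of the 24. At 10 days the probes at 80 and 95 passed the background in 3 and 2 of 8 channels, against 4 to 8 for the others of this gene. How far background held their ratios down was not measured.

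**Figure D5:**
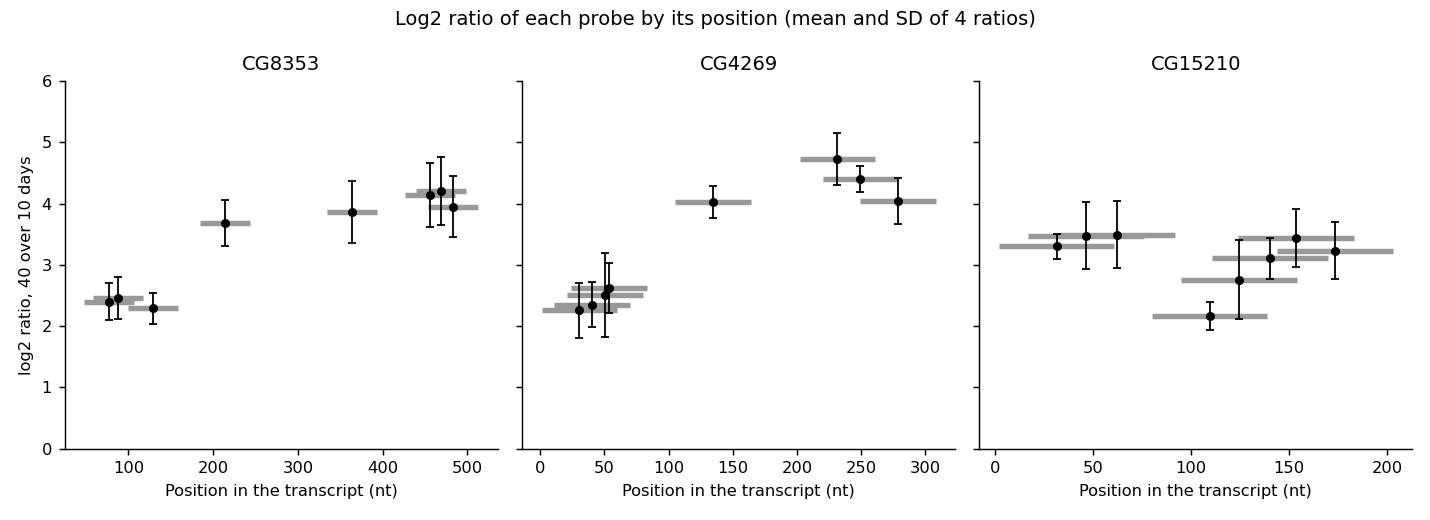
Log2 ratio of 40 to 10 days of each probe (y axis, mean and SD of 4 ratios) by its place in the transcript in nucleotides (x axis), with a grey bar for the 60 nucleotides that the probe covers. Ratios are 2.3 to 2.6 in the first stretch of CG8353 and CG4269 and 3.7 to 4.7 after it, while CG15210 is lowest at the probe that starts at 80.

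Across the 8 probes, r between ratio and position was 0.93 in CG8353 and 0.92 in CG4269, against -0.23 in CG15210, given as a description because probes overlap. Among all 16617 transcripts with 8 probes the median r was 0.03, and 2.09% and 2.75% had an r as high as CG8353 and CG4269. The distance between the highest and the lowest probe ratio was 1.91, 2.47 and 1.33 in the 3 genes, against a median of 0.43 over all transcripts. The other 21 transcripts called higher, whose log2 ratios ran from 0.82 to 5.47, had a median r of 0.88, with 7 above 0.9, and a median distance of 2.27 (0.46 to 4.99).

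Other genes of pyrimidine use could be named in 4 of 25 cases, all through those induced probes of the study, so that their direction is no independent evidence. None of the 4 passed at an adjusted p under 0.01 in limma, neither over the 4 ratios nor with 4 value table samples against 4, against 0.144% of all transcripts higher. Over the 4 ratios, 3 of them had an unadjusted p under 0.05 (limma), as had 2934 of all 16637 transcripts. CG6364, a uridine-cytidine kinase, had the highest ratio of the 4, with 0.58, 0.74, 0.65 and 0.41 in replicates A to D and a mean of 0.59 (adjusted p = 0.039). CG6330, a uridine phosphorylase, had 0.39, 0.77, 0.56 and 0.45 (mean 0.54, adjusted p = 0.058). CG17224, another uridine phosphorylase, had -0.67, 0.40, 1.16 and 0.69, which lie on both sides of 0 (mean 0.39, adjusted p = 0.57). RnrL, the large subunit of ribonucleotide reductase, had a mean of 0.24 (adjusted p = 0.10). The median of the 4 was 0.47, where that of the 701 named transcripts was 0.59 and that of all transcripts 0.01. The other 2 deaminases, CG8349 and CG8360, were not named and are not analysed here.

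Of the 18 nearest annotated genes, 3 on each side of each member, 1 could be named. Snx6, a sorting nexin and the farthest of the 3 on its side of CG8353, had log2 ratios of 0.83, 0.82, 0.07 and 0.85 in replicates A to D (mean 0.64, limma adjusted p = 0.17).

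Among the 701 named transcripts, those whose levels followed each gene most closely within ages were found by Pearson's r over the 8 centred samples, as a description with no p since they were picked as the highest. They were CG14933 (r = 0.97), CHKov1 (r = 0.95) and IM1 (r = 0.94) for CG8353, CG34379 (r = 0.93), Pal (r = 0.92) and dro5 (r = 0.89) for CG4269, and CG6426 (r = 0.92), Vps20 (r = 0.89) and Sp212 (r = 0.89) for CG15210. IM1 and dro5 encode peptides of the immune-induced and drosomycin families. The log2 level of dro5 was 11.89, 11.28, 11.93 and 9.69 in 40-day samples A to D, with C and A highest as in CG4269, against 7.31, 7.50, 7.25 and 8.03 in 10-day samples A to D. No transcript was among the 3 closest of more than 1 gene.

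With the ages left in, the closest were CG18563, CG6639 and CG11550 for CG8353, CG12926, CG32412 and CG30090 for CG4269, and CG7763, IM23 and CG30104 for CG15210, each with an r of 0.99 over the 8 samples. This likeness contains the difference between ages by which all of them had been chosen. CG7763, of the C-type lectin family, had log2 levels of 12.32, 13.17, 12.11 and 12.25 in 40-day samples A to D, against 6.40, 6.84, 6.57 and 7.35 in 10-day samples A to D. It was highest in 40-day sample B and in 10-day sample D, as was CG15210, while the 10-day samples below D stood in another order.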

How the data were processed

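For every probe and channel the authors deposited the unnormalized scanner intensity from NimbleScan 2.5.26. They also deposited normalized values, a linear intensity per sample and dye after lowess, with column medians of 70.4 to 99.9. Here R 4.3.3 was used with statmod 1.5.0 and limma 3.58.1, which applied normexp with an offset of 50 to the scanner values and then loess to each array. Ratios on the log2 scale have 40 days on top. The mean was taken over the probes of a transcript and over both dye-swapped arrays that the labels give to a letter, and the resulting 4 ratios were tested against 0 over 16637 transcripts with Benjamini-Hochberg adjustment. Levels of single channels were taken after Aquantile, and levels of samples from the authors' normalized intensity. No per-sample column was left out. Names came from the identifiers in the part held here of the study's list of changed probes, matched by exact symbol or CG number, and the order of genes along a chromosome from the RefSeq annotation. Further steps used scipy 1.17.1, pandas 2.3.3 and numpy 2.4.6 under Python 3.11.15. The number of arrays limits the precision. The procedure was tested on simulated data with 4 independent ratios per transcript. It called 76 of 100 log2 changes of 1, 95 of 100 of 2, and 2 of 16437 unchanged transcripts. The simulation had no background floor and no shared samples, so it does not gauge their effect on the calls.

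The members and lists were chosen with earlier results of these data known. Named are the 3 genes with their 24 probes, the pyrimidine list, the 3 nearest genes on each side, and for each gene the 3 named transcripts of highest r, age-centred and not. Probes shown in full, and the CG7763 and dro5 levels, were picked after values were seen. As alternatives, the background step was omitted, arrays were only centred on their median or scaled by Aquantile, the authors' values were used, dim probes were dropped, probes were summarised by their median, the threshold was 0.05, samples were set against samples with and without a replicate block, the 99th percentile of control probes was used, and each replicate was left out. The mean over separate stretches, 10-day readings set to no less than background, and the assignment of channels by the authors' values were chosen after seeing the data.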

Additional observations from a re-analysis of the deposited data

How the results depend on the processing

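Aquantile and the filter on dim probes left the log2 ratios of the 3 genes as they were, and so did averaging overlapping probes for CG15210, so these say nothing of stability. Under the other alternatives the ratios ran from 3.24 to 3.72 for CG8353 and from 2.95 to 3.26 for CG15210, each within 1 SD of the value reported, and from 2.88 to 3.62 for CG4269. The 2.88 came from setting 10-day readings to no less than background and was more than 1 SD from 3.37. Leaving out a replicate letter gave 3.24 to 3.56, 3.21 to 3.44 and 2.95 to 3.26. The number of transcripts called, 31 (24 higher and 7 lower), depended strongly on the processing. It was 115 with bright probes only, 16 with the median of probes, 255 at a threshold of 0.05, 56 with 4 value table samples against 4, 148 with separate channels by the labels and 50 with the channels as the value table assigns them. Median centring gave 37 higher and 5 lower. Without replicate A, B, C or D the count was 0 each time (limma, adjusted p under 0.01), where 1610 to 2937 had an unadjusted p under 0.05. With the replicate letter as a block in the value table the count was 4. None of the 3 genes was called in those 4 fits or with the block, and 2 of the 3 were called with the median of probes. Over transcripts, the deviations of the 40-day and the 10-day sample of one letter had an r of -0.19 (A), -0.03 (B), 0.47 (C) and 0.25 (D). Of the 4 letters, 1 matched its own letter best. These mixed values do not settle whether the letters pair samples. With the 99th percentile of the controls, 37 of 192 readings of 10 days passed in place of 105, and 176 of 192 of 40 days in place of 192. Of the 37, CG8353 held 35, CG4269 1 and CG15210 1. The pairs of genes kept a positive r under both scanner assignments (0.11 to 0.58), none past the threshold. Spearman's rho did not keep its sign. With channels as the value table assigns them it was -0.048 for CG8353 and CG4269, 0.62 for CG8353 and CG15210 and -0.12 for CG4269 and CG15210. By the labels it was 0.38, 0.21 and 0.60. The causes were not tested. CG4269 is limited by its background at 10 days, and so is CG15210 when the 99th percentile is used.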
